A study of Mus musculus with 8 samples.

Results

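The 9 genes described here keep DNA methylation at imprinted regions or build H3K9-methylated and H3.3-containing heterochromatin, and were followed in mouse epiblast-like cells (EpiLCs) with and without *Tet1*. They were taken by symbol (*Zfp57*, *Zfp445*, *Trim28*, *Setdb1*, *Dppa3*, *Atrx*, *Daxx*, *Ehmt1* and *Ehmt2*) from a table of 54281 genes, and all 9 were among the 17272 genes with enough counts to be tested. *Tet1* KO EpiLCs (lines KO25, KO15, KO9 and KO1) came from 4 male *Tet1*-/- ESC lines, and WT EpiLCs (lines WT34, WT12, WT17 and WT7) came from 4 male *Tet1*+/+ ESC lines. All 8 lines were derived from blastocysts of the cross (B6 × 129S6)F1-*Tet1* tm1Koh. They had been adapted from feeders to 2iL medium on gelatin, were converted in N2B27 with 1% KOSR and 12 ng/ml bFGF without Activin A, and gave 1 polyA RNA-seq library each on day 2. A difference between lines therefore cannot be told apart from one between cultures or libraries, nor a higher level per cell from more cells of one type. Each column name closes with a suffix that the labels do not explain and that is crossed with genotype, b2 for KO15, KO25, WT12 with WT34, and b1 for KO1, KO9, WT7 with WT17. Values per line are given below in the order KO1, KO9, KO15, KO25 for *Tet1* KO, and WT7, WT12, WT17, WT34 for WT.

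KRAB zinc finger proteins such as ZFP57 and ZFP445 bind methylated DNA at imprinting control regions and recruit TRIM28 (KAP1), a scaffold that brings in the H3K9 methylase SETDB1 and DNA methyltransferases. DPPA3 (STELLA, PGC7) shields H3K9me2-marked maternal DNA from TET-driven oxidation in the zygote, and EHMT1 (GLP) and EHMT2 (G9a) form the heterodimer that lays down H3K9me2. ATRX, a chromatin remodeller, and DAXX, a histone chaperone, deposit H3.3 at repeats and at imprinted regions. TET1, the enzyme removed here, oxidises 5-methylcytosine, the mark that the first of these proteins read.

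In the KO lines *Tet1* had 38.5 to 54.2 CPM (counts scaled to library size), against 559 to 851 CPM in the WT lines (log2 fold change −3.97, SE 0.17, adjusted p = 2.09e-05 by the edgeR quasi-likelihood test), so the labels matched the targeted gene in every line. In TPM (the deposited length-corrected unit) the difference of *Tet1* was smaller, with 21.59 to 32.01 TPM in KO lines and 60.55 to 91.46 TPM in WT lines. Epiblast and core pluripotency markers summed to 1216 to 1454 TPM in KO lines and to 1147 to 1435 TPM in WT lines. *Pou5f1* was at 412 to 512 TPM over all lines. Of 11 listed germ cell genes 9 averaged at least 1 TPM, and the list summed to 159 to 294 TPM in KO lines and to 194 to 329 TPM in WT lines, while *Prdm1* reached at most 0.565 TPM and *Nanos3* at most 0.326 TPM. Library totals ran from 13916576 to 23680839 counts, so that 1 count stood for 0.0417 to 0.0729 CPM.

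The promoters of 8 of the 9 genes were found in RefSeq (GRCm38.p6, the mm10 assembly), as 250 bases before to 50 bases after a start site; *Dppa3* was without an entry. Those of 4 genes are shown because *Zfp445*, *Ehmt1* and *Ehmt2* differed between column suffixes and *Zfp57* had 1 line far below the rest. CpG dinucleotides, the substrate of the methylation that these factors guard, are in capitals, and each sequence runs 5′ to 3′ in the direction of the gene.
*Zfp57*, chr17:37000913-37001212, plus strand: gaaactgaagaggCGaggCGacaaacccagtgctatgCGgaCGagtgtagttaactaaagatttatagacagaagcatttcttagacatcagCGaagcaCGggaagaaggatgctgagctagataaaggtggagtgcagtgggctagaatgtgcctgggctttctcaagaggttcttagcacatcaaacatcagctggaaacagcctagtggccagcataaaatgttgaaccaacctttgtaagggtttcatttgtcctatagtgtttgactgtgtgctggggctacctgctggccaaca
*Zfp445*, chr9:122865957-122866256, minus strand: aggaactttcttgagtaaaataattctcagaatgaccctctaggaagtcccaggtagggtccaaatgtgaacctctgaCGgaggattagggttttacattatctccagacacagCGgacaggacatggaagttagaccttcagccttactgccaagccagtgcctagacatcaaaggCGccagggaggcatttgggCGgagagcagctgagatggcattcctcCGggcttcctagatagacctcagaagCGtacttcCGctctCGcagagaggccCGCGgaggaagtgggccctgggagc
*Ehmt1*, chr2:24919560-24919859, minus strand: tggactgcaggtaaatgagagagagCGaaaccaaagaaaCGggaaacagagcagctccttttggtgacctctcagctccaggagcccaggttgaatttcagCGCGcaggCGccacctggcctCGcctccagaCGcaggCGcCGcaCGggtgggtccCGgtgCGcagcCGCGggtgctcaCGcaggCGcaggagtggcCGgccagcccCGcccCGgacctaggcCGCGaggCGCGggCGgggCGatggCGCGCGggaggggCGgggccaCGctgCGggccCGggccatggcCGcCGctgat
*Ehmt2*, chr17:34898224-34898523, plus strand: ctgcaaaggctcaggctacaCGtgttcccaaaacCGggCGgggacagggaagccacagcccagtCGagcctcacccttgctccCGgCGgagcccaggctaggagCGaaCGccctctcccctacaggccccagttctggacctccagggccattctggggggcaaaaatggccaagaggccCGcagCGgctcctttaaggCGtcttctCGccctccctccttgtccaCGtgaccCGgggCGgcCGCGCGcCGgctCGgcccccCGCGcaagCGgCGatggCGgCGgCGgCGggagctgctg

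These windows held 6 CpGs for *Zfp57*, 10 for *Zfp445*, 34 for *Ehmt1* and 28 for *Ehmt2*, against a median of 7 over 32851 RefSeq promoter windows of 300 bases with an upper quartile of 20. The promoters of *Daxx* (33 CpGs) and *Trim28* (23 CpGs) were likewise above the upper quartile, and those of *Setdb1* (15) and *Atrx* (11) were between the median and the upper quartile. *Zfp57* and *Zfp445* thus had fewer CpGs in this window than the 6 other matched genes. The hexamer TGCCGC, the core of the sequence that ZFP57 recognises when its CpG is methylated, was searched on both strands. It lay once in the window of *Trim28* and once in the window of a second start site of *Ehmt2* (chr17:34898720-34899019), and 11.6% of all windows held it.

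On the scale of TPM, which corrects for transcript length, *Trim28* was far above the other 8 genes with 600 ± 72.3 TPM (SD, n = 8 lines). *Atrx* followed with 106 ± 11.7 TPM and *Zfp57* with 79.4 ± 15.3 TPM. The ranges of these 2 overlapped, although *Atrx* was the higher of the pair in 8 of 8 lines. *Ehmt1* averaged 47.8 ± 5.52 TPM, *Ehmt2* 34.4 ± 5.26 TPM and *Daxx* 30.5 ± 5.04 TPM. *Zfp57* was above *Ehmt1* in 7 of 8 lines, the exception being WT12 (47.3 against 48.2 TPM). *Ehmt2* exceeded *Daxx* in 5 of 8 lines, and this pair did not differ beyond the spread of lines. The lowest levels were those of *Zfp445* (20.9 ± 3.16 TPM), *Setdb1* (14.6 ± 0.742 TPM) and *Dppa3* (6.98 ± 2.59 TPM), each without overlap with its neighbours, and *Ehmt1* and *Ehmt2* did not overlap either. In TPM the imprint-specific *Zfp57* was thus 2.03 to 5.81 times as high as *Zfp445*. The scaffold *Trim28* was 34.1 to 46.3 times as high as its methyltransferase partner *Setdb1*. These ratios depend on the transcript lengths assigned in quantification. Without that correction, mean CPM in KO and WT lines were 160 and 155 for *Zfp57* and 157 and 163 for *Zfp445*. They were 1076 and 1010 for *Trim28* and 154 and 154 for *Setdb1*.

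**Figure D1:**
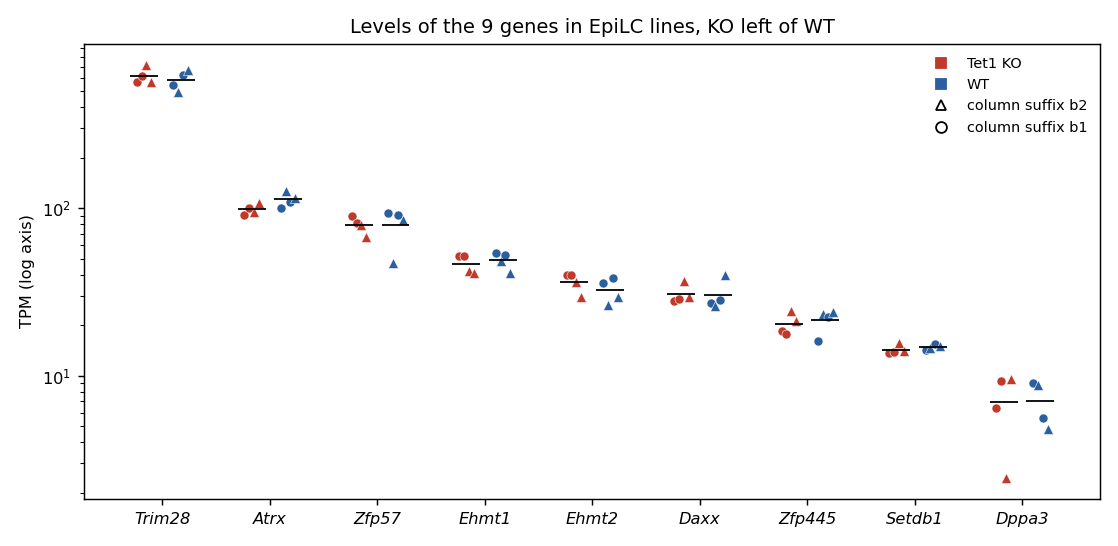
TPM (log axis) of the 9 genes in 4 *Tet1* KO lines (red, left) and 4 WT lines (blue, right), with 1 point per line, triangles for column suffix b2 and circles for b1, and the group mean as a bar. The genes run from *Trim28* (600 TPM on average) to *Dppa3* (6.98 TPM), and KO and WT lines overlapped in every gene.

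The main comparison asked whether loss of *Tet1* altered the expression of these factors in EpiLCs. None of the 9 genes passed the test. The edgeR fit called 0 of 9 at an adjusted p under 0.05, against 0.0405% of all genes tested (7 of 17272). At an unadjusted p under 0.05 it called 0 of 9, against 5.62% of all genes. DESeq2 called 0 of 9 beside 0.614% of all genes, and limma on log2(TPM + 1) called 0 of 9 beside 0.0145%. This limma fit did not call *Tet1* itself (log2 −1.565, adjusted p = 0.0843). Its 0 of 9 therefore says little about a small change in these genes. In 0 of 9 genes were the KO and WT lines without overlap in CPM, against 4.19% of all genes. The log2 fold change was positive in 4 genes and negative in 5, with a median of −0.0047 beside −0.0044 over all genes.

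*Zfp57*, which reads the methylated hexamer at most imprinting control regions in mouse, had 183, 164, 154 and 140 CPM in the KO lines, against 195, 82.7, 158 and 184 CPM in the WT lines. WT12 was the lowest of the 8 lines, and the other 3 WT lines overlapped the KO lines. The log2 fold change was 0.05 (SE 0.23, adjusted p = 0.998 by edgeR), which as a ratio of KO to WT allows 0.725 to 1.49 (95% interval). It was −0.16 without WT12 and −0.02 without KO1, and kept its sign without each of the other 6 lines.

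*Zfp445*, the broader-acting zinc finger protein of imprint maintenance in mouse and human, had 132, 130, 181 and 183 CPM in the KO lines, against 136, 180, 150 and 187 CPM in the WT lines. Both genotypes held 2 lower b1 lines and 2 higher b2 lines, and KO and WT lines overlapped throughout. The log2 fold change was −0.06 (SE 0.15, adjusted p = 0.998 by edgeR), and the interval of the ratio, 0.757 to 1.21, narrowed to 0.872 to 1.04 with the suffix as a block.

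*Trim28* had 973, 1056, 1289 and 985 CPM in the KO lines, against 999, 837, 998 and 1206 CPM in the WT lines. The b1 lines were close to each other, and the highest and the lowest value both fell among the b2 lines. Its ratio of KO to WT was 1.07 (95% interval 0.872 to 1.30, edgeR). *Setdb1*, the H3K9me3-writing enzyme that TRIM28 recruits, had 145, 148, 167 and 155 CPM in the KO lines and 156, 146, 150 and 163 CPM in the WT lines. This was the flattest profile in TPM of the set. Its ratio was 1.00 (95% interval 0.889 to 1.13). In TPM the ratio of *Trim28* to *Setdb1* was 43.1 ± 2.67 in KO lines and 39.2 ± 4.30 in WT lines (SD, n = 4 each), with overlap.

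*Dppa3* was the least abundant and the most variable of the 9. It had 8.11, 11.1, 3.06 and 11.2 CPM in the KO lines, against 11.2, 10.6, 6.78 and 6.09 CPM in the WT lines. KO15 was the lowest line, below every WT line, and the other 3 KO lines overlapped the WT lines. The log2 fold change was −0.06 (SE 0.38, adjusted p = 0.998 by edgeR), the ratio could lie between 0.532 and 1.74 (95% interval), and the sign turned without KO15 (0.22), WT7 (0.09) or WT12 (0.05). The gene shares reads with the processed pseudogene *Dppa3-ps* on chromosome X, which held 0 to 26.8 estimated counts per line. The 2 values were fractional in 6 lines while their sum was whole, within 0.01 of a count, in 7 of 8 lines, so how the reads were split is uncertain. Summed over both, the level was 8.11, 11.1, 3.53 and 11.8 CPM in the KO lines and 12.7, 10.8, 7.44 and 6.65 CPM in the WT lines, in which KO15 was again the lowest.

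*Atrx*, on the X chromosome, came nearest to a difference. It had 453, 465, 468 and 478 CPM in the KO lines, against 485, 568, 467 and 529 CPM in the WT lines. The 4 KO lines lay below the WT median, but WT17 fell among them. The log2 fold change was −0.14 (SE 0.08, adjusted p = 0.971 by edgeR), a ratio of 0.910 with a 95% interval of 0.805 to 1.03. With the suffix as a block the interval was 0.834 to 0.998 and the adjusted p was 0.404. In that fit 0 of 9 genes were called at an adjusted p under 0.05, beside 0.162% of all genes. *Atrx* was the 1 gene of the 9 at an unadjusted p under 0.05. The share of all genes at this unadjusted threshold was not computed for the blocked fit, so nothing is read from that count.

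*Daxx*, the chaperone that works with ATRX, had 63.1, 63.6, 91.3 and 77.8 CPM in the KO lines and 74.1, 66.1, 64.1 and 102 CPM in the WT lines. KO and WT lines overlapped, and the ratio of KO to WT was 0.967 (95% interval 0.738 to 1.27, edgeR). The TPM ratio of *Atrx* to *Daxx* was 2.57 to 3.67 in KO lines and 2.86 to 4.90 in WT lines.

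*Ehmt1* had 173, 168, 146 and 141 CPM in the KO lines, against 170, 150, 165 and 145 CPM in the WT lines. Its lines fell into the same 2 levels in both genotypes, and the ratio of KO to WT was 0.997 (95% interval 0.861 to 1.15, edgeR). *Ehmt2* had 196, 196, 167 and 152 CPM in the KO lines, against 189, 122, 180 and 155 CPM in the WT lines. WT12 was the lowest of the 8, and the ratio was 1.10 (95% interval 0.880 to 1.38). The TPM ratio of *Ehmt1* to *Ehmt2*, whose proteins need each other for stability, was 1.17 to 1.40 in KO lines and 1.38 to 1.83 in WT lines, so that the groups overlapped at their edges.

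**Figure D2:**
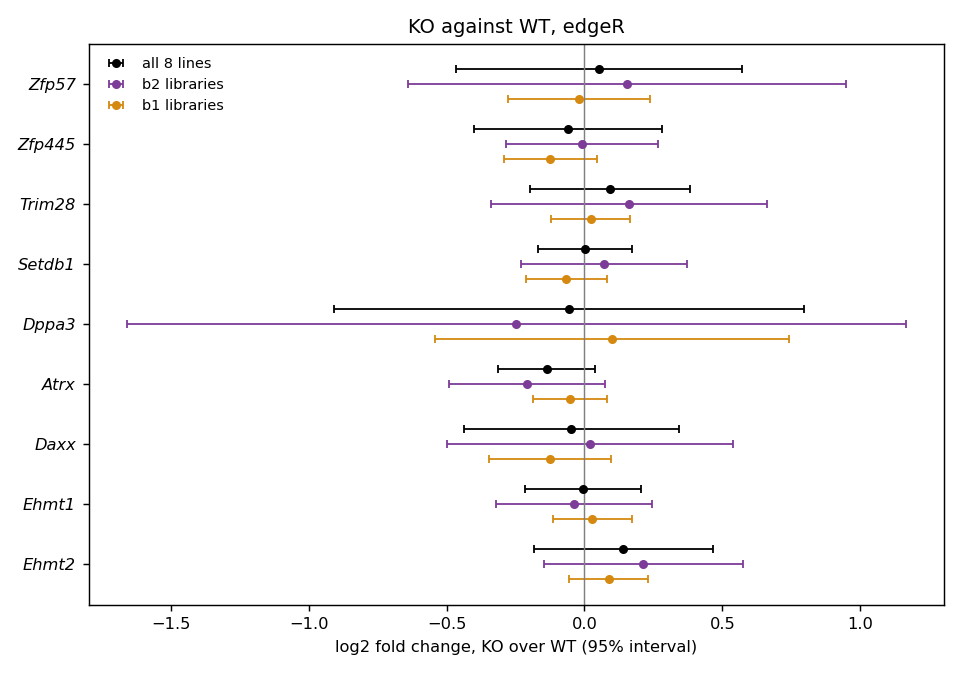
Log2 fold change of KO over WT by edgeR for the 9 genes (x axis), with 95% intervals, over all 8 lines (black), within the b2 libraries (purple) and within the b1 libraries (orange, 2 KO and 2 WT lines each). Every interval includes 0 and that of *Dppa3* is the widest (−0.91 to 0.80 over all lines).

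Within each suffix, where 2 KO lines were set against 2 WT lines, edgeR again called 0 of 9 genes, beside 0.0289% of all genes within b2 and 0.109% within b1. Within b2 the log2 fold changes ran from −0.25 (*Dppa3*) to 0.21 (*Ehmt2*), and within b1 from −0.13 (*Daxx*) to 0.10 (*Dppa3*). *Zfp57*, *Setdb1*, *Dppa3*, *Daxx* and *Ehmt1* differed in sign between the suffixes. The interaction of genotype and suffix was called in 0 of 9 genes and in 0.00% of all genes by edgeR, and at an unadjusted p under 0.05 in 0 of 9 and in 1.31%. The largest interaction among the 9 was that of *Dppa3* (log2 −0.36, SE 0.76), whose within-suffix intervals were also the widest.

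Lines of the same genotype were also compared between the column suffixes. With genotype in the model, edgeR called 3 of the 9 genes between b2 and b1, *Zfp445* higher and *Ehmt1* and *Ehmt2* lower. Of all genes tested, 24.6% were called, 13.7% higher and 11.0% lower in b2, so 3 of 9 is near the background and is no result about these genes in particular. At an unadjusted p under 0.05 there were 4 of 9, against 37.8% of all genes. In 3 of 9 genes the b2 and b1 libraries did not overlap, against 26.3%. The median log2 fold change was 0.08 over the 9 genes and 0.0077 over all genes. Scaled by library size alone the calls over all genes were 1933 higher and 2511 lower in place of 2359 and 1894, and the 3 genes kept their calls and directions.

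*Zfp445* averaged 183 ± 3.11 CPM in b2 and 137 ± 8.96 CPM in b1 libraries (SD, n = 4 each), 1.34-fold higher (log2 0.42, SE 0.06, adjusted p = 0.00121). The lowest b2 line, WT12 with 180 CPM, exceeded the highest b1 line, WT17 with 150 CPM. The call held with each line left out (adjusted p 0.00135 to 0.0106) and in the KO lines alone (log2 0.47, adjusted p = 0.0321), where 5.79% of all genes were called. It was lost in the WT lines alone (0.36, adjusted p = 0.128, beside 1.54% of all genes called) and by limma on log2(TPM + 1) (0.31, adjusted p = 0.112). In TPM the suffixes overlapped, since KO25 of b2 had 21.1 TPM, against 22.3 TPM in WT17 of b1.

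*Ehmt2* averaged 149 ± 19.0 CPM in b2 and 190 ± 7.69 CPM in b1 (log2 −0.36, SE 0.08, adjusted p = 0.0111), and *Ehmt1* averaged 146 ± 3.91 CPM in b2 and 169 ± 3.34 CPM in b1 (−0.21, SE 0.05, adjusted p = 0.0165). Both partners of the H3K9me2 heterodimer were thus lower in b2 by edgeR, without overlap. Neither passed in the KO lines alone (adjusted p = 0.151 for *Ehmt1* and 0.116 for *Ehmt2*) or in the WT lines alone (adjusted p = 0.303 and 0.161). The call of *Ehmt1* was lost without KO1 (adjusted p = 0.0651) and without WT7 (adjusted p = 0.0535), whereas that of *Ehmt2* held with each line left out (adjusted p 0.00641 to 0.0423). By limma on log2(TPM + 1), which called 11.5% of all genes, *Ehmt1* was called (−0.28, adjusted p = 0.0421) and *Ehmt2* was not (−0.33, adjusted p = 0.054), and without the filter on low values limma called neither (adjusted p = 0.0692 and 0.0982).

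*Daxx* had 84.2 ± 15.5 CPM in b2 and 66.2 ± 5.29 CPM in b1 (log2 0.35, SE 0.13, adjusted p = 0.0749 by edgeR), and passed without WT12 (0.46, adjusted p = 0.00433) and by DESeq2 (adjusted p = 0.0446, beside 26.7% of all genes called). *Zfp57* had 140 ± 42.4 CPM in b2 and 175 ± 17.2 CPM in b1 (−0.33, SE 0.20, adjusted p = 0.270). WT12 and WT34 pulled it in opposite directions, since the value was −0.13 without WT12 and −0.57 without WT34 (adjusted p = 0.0485). The TPM ratio of *Zfp57* to *Zfp445* did not overlap between the suffixes, at 2.03 to 3.55 in b2 and 4.08 to 5.81 in b1. The ratios of *Trim28* to *Setdb1* (34.1 to 46.3 in b2, 37.9 to 44.3 in b1) and *Atrx* to *Daxx* (2.57 to 4.90 and 3.27 to 3.87) overlapped. So did that of *Ehmt1* to *Ehmt2* (1.17 to 1.83 and 1.29 to 1.52). No share over other pairs of genes was computed, so nothing particular to *Zfp57* and *Zfp445* is read from their ratio. *Trim28* (log2 0.10), *Setdb1* (0.08), *Dppa3* (−0.28) and *Atrx* (0.13) did not pass the test.

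**Figure D3:**
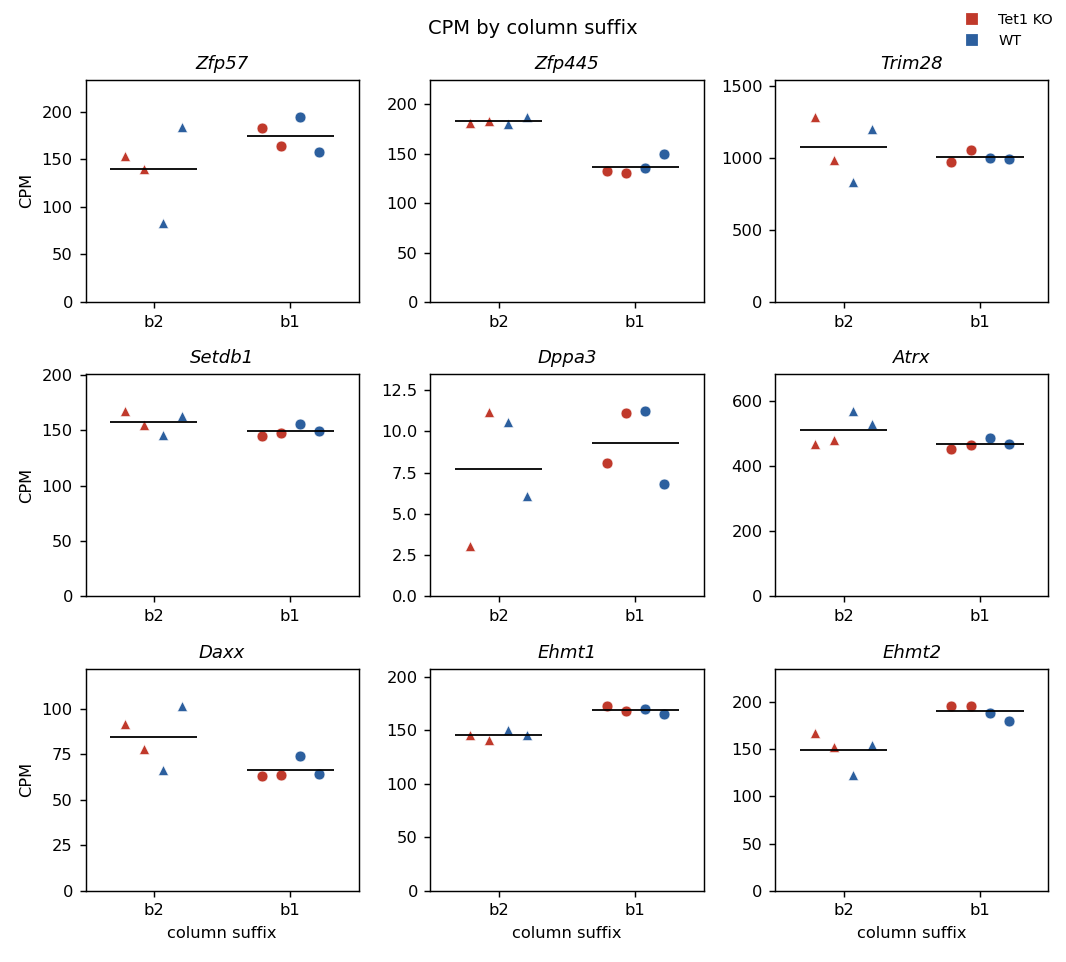
CPM (y axis from 0) of each of the 9 genes in b2 (left, triangles) and b1 (right, circles) libraries, with *Tet1* KO lines in red, WT lines in blue and the mean as a bar. The suffixes separate in *Zfp445* (183 against 137 CPM on average), *Ehmt1* and *Ehmt2*, in both genotypes.

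Some sums of marker genes separated by suffix as well. The summed TPM of 11 germ cell markers was 263 to 329 in b2 and 159 to 209 in b1, that of 10 epiblast and core pluripotency markers was 1338 to 1454 in b2 and 1147 to 1244 in b1, and that of 12 feeder fibroblast markers was 5.85 to 17.7 in b2 and 20.1 to 30.2 in b1. Those of two-cell-like (34.7 to 45.8 TPM in b2, 24.3 to 30.9 TPM in b1) and neural ectoderm markers (5.34 to 12.2 and 3.28 to 4.60 TPM) did not overlap either. The sums of naive pluripotency (341 to 475 TPM in b2, 412 to 452 TPM in b1), extraembryonic endoderm (24.5 to 29.9 and 24.8 to 39.8 TPM) and primitive streak markers (0.594 to 1.76 and 0.239 to 0.990 TPM) overlapped between the suffixes. *Postn* and *S100a4* of the fibroblast list and *Gm4340* and *Tdpoz4* of the two-cell-like list were at 0 in every line. Only 1 of 11 two-cell-like, 1 of 8 neural ectoderm and 2 of 12 fibroblast genes averaged at least 1 TPM. So did 2 of 12 extraembryonic endoderm and 0 of 8 primitive streak genes. These sums thus rest on few genes or on low values, and no cell type is read from them. Of the fibroblast list edgeR called 1 gene higher and 1 lower in b2. The part of the marker differences between suffixes in the values of *Zfp445*, *Ehmt1* and *Ehmt2* was not tested.

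Taking out the suffix changed how variable some of the genes looked. The SD of log2 CPM within genotype was 0.25 for *Zfp445*, 0.13 for *Ehmt1* and 0.09 for *Atrx*, and within genotype and suffix it was 0.06, 0.03 and 0.04 in that order, beside medians over all genes of 0.26 and 0.20. *Ehmt2* went from 0.24 to 0.13, *Daxx* from 0.28 to 0.24 and *Trim28* from 0.20 to 0.24. Since *Zfp445*, *Ehmt1* and *Ehmt2* were called between the suffixes in these data, their smaller SD within a suffix follows from that. *Setdb1* was even by both measures (0.08 and 0.07). *Dppa3* (0.64 and 0.72) and *Zfp57* (0.42 and 0.43) stayed wide within a suffix, where KO15 and WT12 were the lines apart.

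Other genes of the same machinery were read from 8 lists with 96 genes, of which 86 were tested. Between KO and WT edgeR called 0 of these 86 genes, DESeq2 called 0, and 0 were called by the fit blocked on the suffix. At an unadjusted p under 0.05 there were 4 of 86 (4.65%, beside 5.62% of all genes). Those 4 were *Asf1b*, an H3 and H4 chaperone (log2 −0.46, SE 0.13, adjusted p = 0.622), *Ubn2*, a subunit of the HIRA complex (−0.23, SE 0.08, adjusted p = 0.791), *Kdm4b*, an H3K9 demethylase (−0.25, SE 0.10, adjusted p = 0.810), and *Cdca7*, which acts with HELLS at pericentromeric repeats (0.19, SE 0.08, adjusted p = 0.825). The median over the 86 was −0.02.

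Among the TRIM28 corepressors and HP1 proteins, the smallest p-values between KO and WT belonged to the HP1 genes *Cbx1* (log2 0.08) and *Cbx3* (0.08) and to *Trim33* (0.07). Among other H3K9 methyltransferases and their partners they belonged to *Zfp462* (0.22, SE 0.10, adjusted p = 0.924), *Suv39h1* (−0.22) and *Mecom* (0.27). Among other imprint factors the values were −0.23 (*Arid4a*), 0.14 (*Rbbp4*) and −0.10 (*Mbd3*), and among other KRAB zinc finger genes −0.79 (*Zfp819*), −0.40 (*Zfp809*) and −0.59 (*Zfp386*). None of these passed the test by edgeR.

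Between the suffixes 32 of the 86 genes were called (37.2%, beside 24.6% of all genes), 25 higher and 7 lower in b2, or 20 higher and 12 lower when scaled by library size alone. Of 16 other KRAB zinc finger genes, 9 were higher and 0 lower in b2 (beside 13.7% and 11.0% of all genes), with a median log2 fold change of 0.47. They included *Zfp386* (2.00, SE 0.12, adjusted p = 3e-05), which averaged 27.7 CPM in b2 and 7.04 CPM in b1, *Zfp819* (1.77), *Zfp809* (0.99), a silencer of retroviruses in mouse, and *Zfp568* (0.81), a repressor of a placental *Igf2* transcript in mouse. Also called higher were *Zfp992* (0.61), *Zfp932* (0.53), *Zfp951* (0.52), *Zfp738* (0.42) and *Zfp317* (0.34). *Zfp445* was higher in b2 as 9 of the 16 were, and *Zfp57* was among the genes that did not pass. This list was chosen with earlier results of these data known and was not tested as a list, so no pattern of the family is read from it. Without each line in turn 5 (without KO9) to 10 (without WT12) of the 16 were higher and at most 1 was lower. In KO lines alone 6 of the 16 were higher, beside 5.79% of all genes called in either direction. In WT lines alone 3 were higher, beside 1.54%. By limma on log2(TPM + 1) 4 of 12 were higher, beside 11.5% of all genes called. Without the filter on low values 3 of 16 were higher, beside 848 of 35103 genes called.

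In the other lists the counts are small and are read against 13.7% of all genes higher and 11.0% lower in b2, and with no test of a list nothing particular to one is read from them. Of 10 other H3K9 methyltransferases and partners 3 were higher in b2 and 0 lower, namely *Suv39h1* (0.50), *Suv39h2* (0.34) and *Zfp644* (0.47), a zinc finger partner of EHMT1 and EHMT2. Of 10 H3K9 demethylases 3 were lower and 0 higher, *Kdm4c* (−0.41), *Kdm7a* (−0.40) and *Kdm1a* (−0.23). In KO lines alone and in WT lines alone 0 of these 10 were called, and by limma 1 was called lower. Of 12 genes of H3.3 deposition and histone chaperones 5 were higher, *Asf1a* (0.43), *Hira* (0.41), *Dek* (0.40), *H3f3b* (0.30) and *Chaf1a* (0.21), and *Ubn1* (−0.34) was lower. Of the TRIM28 corepressors *Resf1* (0.68), *Atf7ip2* (0.39) and *Smarcad1* (0.35) were higher, and *Ctcf* (0.30) and *Arid4b* (0.40) were higher among the imprint factors. The H4K20 methyltransferase *Kmt5b* was higher (0.62) while its homologue *Kmt5c* was lower (−0.50), *Lrif1* was higher (1.04) and *Smchd1* lower (−0.19), and of the HUSH and MORC genes *Morc2a* was higher (0.37) and *Mphosph8* lower (−0.26). Without single lines the number called ran from 18 (without KO9) to 39 (without WT12).

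**Figure D4:**
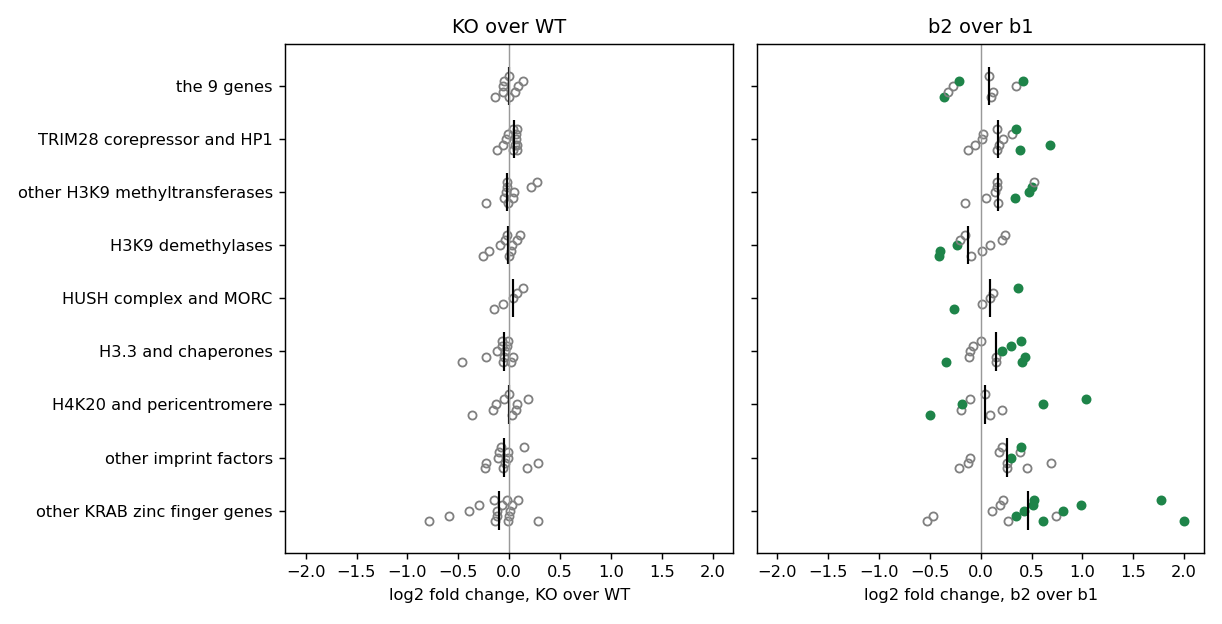
Log2 fold change of KO over WT (left) and of b2 over b1 (right) for the 9 genes and the 86 tested genes of 8 lists, 1 point per gene, filled green where edgeR called it at an adjusted p under 0.05, with the median as a bar. No gene is filled on the left, and 3 of the 9 and 32 of the 86 are filled on the right.

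The 2 genes with the widest range were set against 12541 genes by the root mean square difference of their mean-centred log2 CPM over the 8 libraries. The 5 genes most like *Zfp57* were *Pcolce* (0.10), *Cadm4* (0.11), *Nid1* (0.11), *Bcam* (0.12) and *Mindy1* (0.12). Their being lowest in WT12, like *Zfp57*, follows from how they were chosen. *Nid1*, a basement membrane protein, for example, had 27.4 to 31.5 CPM in the KO lines, against 11.9 CPM in WT12 and 28.0 to 33.5 CPM in the other WT lines. The 5 genes most like *Dppa3* were *Calcrl* (0.18), *Catsperg2* (0.24), *Eif4e3* (0.24), *Zglp1* (0.24) and *Ano10* (0.25), which by the same choice were lowest in KO15. *Eif4e3* had 3.32 CPM in KO15 and 5.72 to 8.24 CPM in the other KO lines, against 4.25 to 7.42 CPM in the WT lines.

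**Figure D5:**
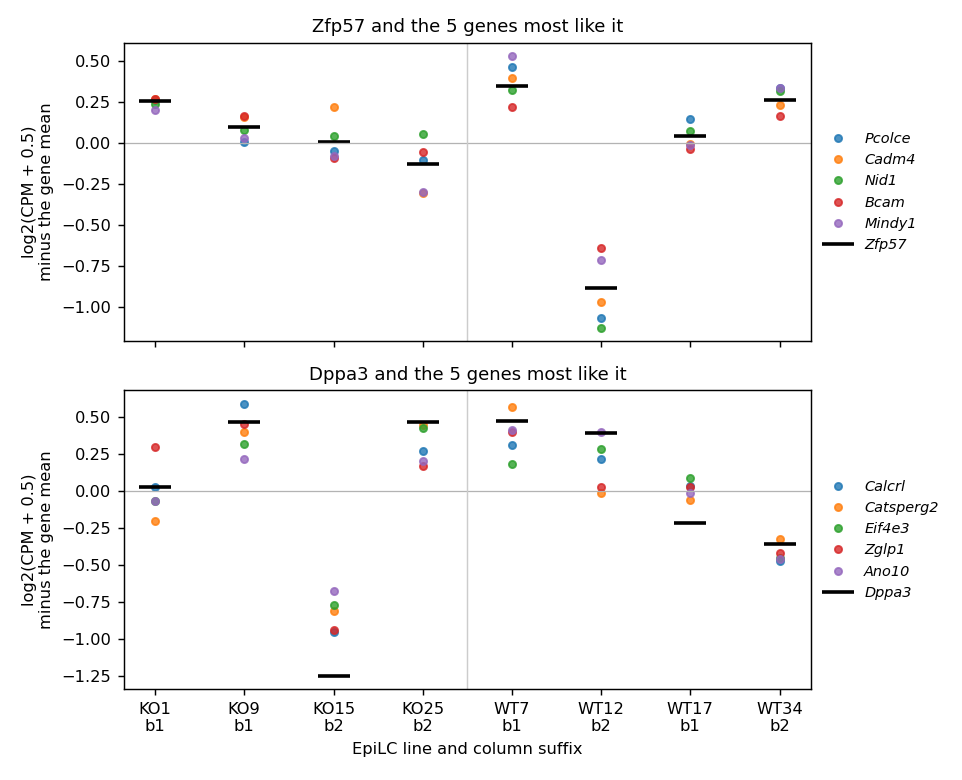
Log2(CPM + 0.5) minus the gene's mean over the 8 lines for *Zfp57* (top) and *Dppa3* (bottom), black bars, with the 5 genes most like each as dots, KO lines left of WT lines and the column suffix under each name. *Zfp57* and its 5 genes are lowest in WT12, and *Dppa3* and its 5 genes are lowest in KO15, which follows from choosing them on these 8 libraries.

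The genes lie on 7 chromosomes of mm10 by GENCODE M21. *Zfp57* (chr17:37001163-37010635), *Daxx* (chr17:33909414-33915590) and *Ehmt2* (chr17:34898469-34914052) share chromosome 17, and had log2 fold changes of −0.33, 0.35 and −0.36 between b2 and b1. *Setdb1* (chr3:95323525-95357202) and *Trim28* (chr7:12999114-13031035) overlap genes of the other strand, *Cers2* with up to 49.0% and *Zbtb45* with up to 1.49% of the member's estimated counts. *Zfp445* (chr9:122844529-122866006), *Ehmt1* (chr2:24789928-24919614) and *Atrx* (chrX:105797615-105929403) overlap predicted genes of the same strand with at most 3.57% of their counts. *Dppa3* lies at chr6:122626410-122630272. The estimated counts of *Zfp445*, *Setdb1* and *Ehmt2* were whole, within 0.01, in 0 of 8 libraries, as arises where reads are split among genes, while those of *Zfp57*, *Trim28*, *Daxx* and *Ehmt1* were whole in 8 of 8.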

How the data were processed

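RNA-seq was measured in EpiLCs of 4 *Tet1* KO and 4 WT lines, grouped by the library titles. The library called WT12 here by its title and column has WT9 as its cell line label, and the one called WT17 has WT12, so which line WT12 is remains uncertain. By the methods and the submitters' processing notes, the authors used Trim Galore 0.6.4 for trimming and Salmon 0.14.1 for quantification on transcripts, followed by summation per gene with tximport in R 4.0.2, with mm10 named as the build. The authors deposited the estimated counts and, separately, the TPM of the same quantification. The library kit keeps strand, and Salmon was run with its default settings per the methods; its library-type setting is not given in the sources used here.

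Estimated counts were rounded to whole numbers (27.8% of values were not whole). In edgeR 4.0.16 (R 4.3.3), 17272 genes passed filterByExpr and were scaled by TMM. KO was set against WT by a quasi-likelihood F test, with p-values adjusted after Benjamini and Hochberg over all genes and calls under 0.05. Tests were checked on simulated counts. The same test gave b2 against b1 with genotype in the model, and the interaction. CPM are rounded counts over the TMM-scaled library size, SE is the absolute log2 fold change over the square root of F, and intervals cover 95%. No test was run between genes, on ratios or on lists. Lines count as replicates, and p-values measure the spread between them. One count was at most 0.0729 CPM, so *Dppa3* alone rested on few counts.

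The 9 genes and the lists were chosen with earlier results of these data known. Named are the 9 genes, for each list up to 3 genes with the smallest p in each comparison and any gene called, marker genes whose level is given, and the 5 genes most like each of the 2 widest members (mean CPM of at least 1). The imprinted genes of the closing section were chosen after their values were seen. Positions are from GENCODE M21 and promoters from RefSeq, and no genome sequence was used.

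Alternatives were DESeq2 size factors, library size alone, no filter, at least 10 counts in every library, DESeq2 1.42.0, limma 3.58.1 on log2(TPM + 1) and log2(TPM + 0.1) with a mean of at least 1 TPM or none, each line left out, the suffix as a block, and each suffix or genotype alone. Counting list genes under these was chosen after seeing the data.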

Additional observations from a re-analysis of the deposited data

How the results depend on the processing

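No paired analysis was possible because the line numbers of KO and WT lines share no number and the littermates are not named. Between KO and WT, 0 of the 9 genes and 0 of the 86 list genes passed under every alternative run. The genes called over all genes, 7 by edgeR, were 106 by DESeq2, 2 by limma on log2(TPM + 1) with or without the filter, 3 by limma on log2(TPM + 0.1), 28 with the suffix as a block, 19 in b1 alone and 6 to 10 with single lines left out. Log2 fold changes near 0 turned sign: *Setdb1* was −0.0040 by library size alone, −0.00047 with at least 10 counts in every library, −0.054 by limma with or without the filter, −0.058 with the smaller pseudocount and −0.065 in b1 alone. *Ehmt1* was 0.010 with no filter and 0.028 in b1 alone, *Daxx* was 0.032 by limma with or without the filter, 0.033 with the smaller pseudocount and 0.022 in b2 alone, and in b1 alone *Zfp57* was −0.020 and *Dppa3* 0.098. With single lines left out the ranges were −0.16 to 0.19 for *Zfp57*, −0.14 to 0.016 for *Zfp445*, −0.0076 to 0.19 for *Trim28*, −0.042 to 0.032 for *Setdb1*, −0.23 to 0.22 for *Dppa3*, −0.17 to 0.12 for *Daxx* and −0.054 to 0.045 for *Ehmt1*. *Atrx* (−0.21 to −0.053) and *Ehmt2* (0.025 to 0.23) kept their sign under every alternative.

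Between b2 and b1 the 4253 genes called were 1587 and 1624 by limma on log2(TPM + 1) and log2(TPM + 0.1), 848 by limma without the filter, 1014 in KO lines alone, 271 in WT lines alone and 2655 to 4807 with single lines left out. With no filter 5 of the 9 genes were called (*Zfp57* and *Daxx* added), where 5299 of 35073 genes were called. That set includes genes of low counts, and nothing particular to the 9 is read from the 5. Of the 9 genes, 1 was called by limma with each pseudocount, 0 by limma without the filter, 1 in KO lines alone, 0 in WT lines alone and 2 to 4 with single lines left out. Of the 86 list genes, 11 and 10 were called by limma with the larger and the smaller pseudocount, 5 without the filter, 10 in KO lines alone, 3 in WT lines alone and 18 to 39 with single lines left out. *Dppa3* ran from −0.64 to 0.032 with single lines left out. The genotypes alone hold 2 libraries against 2, and otherwise the cause of these changes was not tested. Depth limits *Dppa3* most, with 58.5 to 253 estimated counts per line.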

Other observations

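WT12, the line with the least *Zfp57*, also stood out in imprinted genes, a list of 37 tested genes chosen after their values had been seen and given without a test. WT12 was the highest of the 8 lines in 15 of the 37 (40.5%, beside 16.5% of all genes). It was the highest or the lowest in 20 (54.1%), against 32.4% of all genes. In the other lines this latter share was 10.8% to 35.1%. Some of the 37 are neighbours in one imprinted domain, such as *Meg3*, *Rian* and *Mirg* or *Peg3*, *Usp29* and *Zim1*, all highest in WT12. The genes are therefore not independent, and the shares over all genes are only a rough comparison. *H19* had 75.1 CPM in WT12, against 7.15 to 12.5 CPM in KO1, KO9 and KO25, 3.27 CPM in KO15 and 9.28 to 12.0 CPM in the other WT lines. *Kcnq1ot1* had 188 CPM in WT12, against 63.8 to 128 CPM in KO lines and 82.9 to 136 CPM in the other WT lines. *Meg3* had 804 CPM in WT12, against 277 to 488 CPM in KO lines and 335 to 530 CPM in the other WT lines. *Phlda2* and *Slc22a18* were at their lowest in WT12, with 7.01 and 0.375 CPM, while *Igf2*, the neighbour of *H19*, was within the range of the other lines at 6.42 CPM. *Ehmt2* and *Trim28* were also lowest in WT12, and *Atrx* was highest there.

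KO15, the line with the least *Dppa3*, had the least *H19* and the highest *Trim28* of the 8 lines. The naive pluripotency markers summed to 411 TPM in KO15, against 432 to 475 TPM in the other KO lines and 341 to 437 TPM in the WT lines. Whether the low *Dppa3* of KO15 and these values are related was not tested.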
